A study of Mus musculus with 2 samples.

Results

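The genes examined here encode the enzymes that attach ubiquitin and the related modifiers SUMO, NEDD8 and UFM1 to proteins, together with the modifiers, the PIAS ligases and the SENP proteases. They were taken by gene symbol from the deposited expression table (symbols starting with Ube2 or with Uba and a digit, and Sae1, the Sumo genes, Pias1 to Pias4, Senp1 to Senp8, Nae1, Nedd8, Ufc1 and Ufm1), which gave 55 of its 11262 genes. The symbol rule itself uses no measured value, although it was set with earlier results of these data known. The study asked which molecules the second polar body (PB2), the small cell cast off by the egg when it completes meiosis after fertilization, holds beside the zygote. Untreated embryos, labelled C57BL/6 and given as C57BL/6N in the methods, were taken at the late one-cell stage and stripped of the zona pellucida with acid, and PB2 was detached in trypsin by pipetting. PB2s and zygotes, each pooled from many embryos, gave 1 library of PB2 and 1 library of zygotes, made from amplified full-length cDNA of polyA RNA. With 1 library of each kind there was no replicate and no test, and every difference below describes these 2 libraries alone.

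Ubiquitin-like modifiers are attached by a relay. An E1 enzyme activates the modifier with ATP, an E2 enzyme takes it over on a cysteine, and an E3 ligase helps to pass it to the target protein, while proteases mature the modifier and remove it again. Ubiquitin often marks proteins for the proteasome, SUMO regulates many nuclear proteins, NEDD8 activates the cullin ubiquitin ligases and UFM1 is linked to ribosomes at the endoplasmic reticulum. In the egg and the early embryo, ubiquitin conjugation drives the exit from meiosis through the anaphase-promoting complex and takes part in the clearance of maternal proteins.

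The values are TPM, which state a gene's transcripts as a share of its own library after adjustment for gene length, so a lower share in PB2 and a smaller amount of RNA per cell cannot be told apart. For each gene the log2 ratio was taken as log2((PB2 TPM + 1)/(zygote TPM + 1)), and a gene was counted as higher in a library when this ratio reached 2-fold. Of the 55 conjugation genes, 54 had at least 1 TPM in either library and were compared. Only Ube2q1 was below, with 0.5 TPM in zygotes and 0.6 TPM in PB2. No conjugation gene was listed at 0 in either library, and 37 of them had at least 10 TPM in both. The table analysed here held 92.7% of a full library in the zygote and 89.8% in PB2, and the depth of both libraries is unknown. All 12 oocyte markers looked for had at least 62.7 TPM in both libraries. Of 12 markers of cumulus and granulosa cells, 3 were in the table, with Cyp19a1 at 72.2 TPM in zygotes and 70.9 TPM in PB2, Fshr at 2.2 and 3.3 TPM, and Cyp11a1 at 0 and 0.8 TPM. The part of such cells in the values below was not tested.

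Among the 54 conjugation genes compared, 8 reached 2-fold towards PB2 and 8 reached it towards the zygote, 14.8% in each direction. Over all 10645 genes compared, the shares were 18.9% towards PB2 and 8.09% towards the zygote. Median log2 ratios were 0.17 for the conjugation genes and 0.21 for all genes. By these medians the conjugation genes lay near the centre of the table as a set, and they differed among themselves. After the trend of the ratio on the GC content of transcripts was removed, the medians were 0.21 and 0.0099. The genes higher in PB2 were Ube2z, Ube2o, Pias4, Uba1, Ube2j1, Ube2g2, Ube2e1 and Senp2, with log2 ratios from 1.65 down to 1.00. Among the genes higher in the zygote were Nae1, Ube2t, Nedd8, Ube2cbp, Ufc1, Ube2e2 and Ube2v2, with log2 ratios from -1.54 to -1.07. With all ratios centred on the median of all genes, 5 conjugation genes passed 2-fold towards PB2 and 9 towards the zygote, against 13% and 12.1% of all genes. The 5 were Ube2z, Ube2o, Pias4, Uba1 and Ube2j1, and Uba6 joined the genes on the zygote side.

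**Figure D1:**
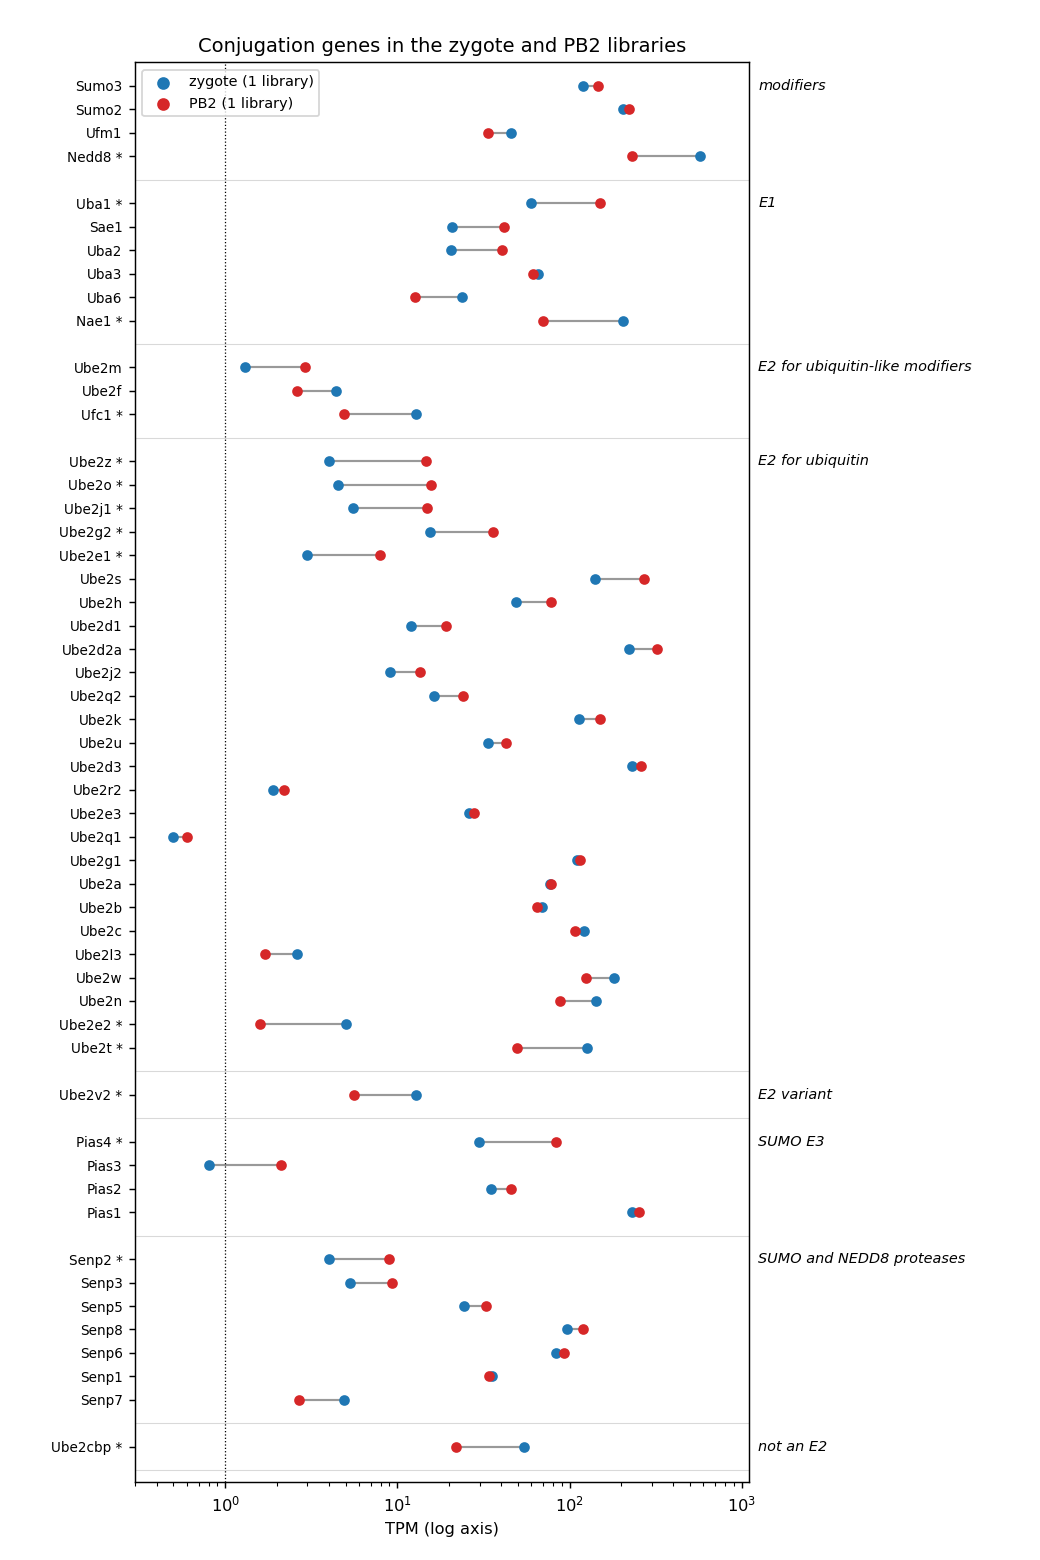
TPM on a log axis of conjugation genes in the zygote library (blue) and the PB2 library (red), grouped by role and ordered by log2 ratio within a role. Stars mark genes at least 2-fold apart on the log2(TPM + 1) scale, among them Nedd8, with 571.6 TPM in zygotes and 230.6 TPM in PB2, and the dotted line is 1 TPM.

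A large part of the summed TPM of the set came from few genes, more so in the zygote than in PB2. The 10 genes with the highest TPM in each library made up 63.3% of that sum in the zygote and 56.8% in PB2. The 5 genes with the highest TPM made up 42.8% of the summed TPM of the conjugation genes in the zygote, among them Nedd8 with 571.6 TPM, Pias1 with 229.9 TPM and Ube2d3 with 229.5 TPM. In PB2 Ube2d2a led with 322.5 TPM, and Ube2s with 271.6 TPM, Ube2d3 with 261.6 TPM and Pias1 with 252.3 TPM were also among the highest 5. Ube2d2a and Ube2d3 encode E2 enzymes that work with many ligases, and Ube2s encodes the E2 that lengthens ubiquitin chains for the anaphase-promoting complex. The summed TPM of the 55 genes was 4660 in the zygote and 4177 in PB2.

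The modifiers had a median log2 ratio of -0.44, beside 0.21 for all genes. After the GC trend was removed these medians were -0.19 and 0.0099. Nedd8 had 571.6 TPM in zygotes and 230.6 TPM in PB2, 2.48-fold lower. Sumo2 and Sumo3, which encode the near-identical SUMO proteins that form chains, were almost level between the libraries. Sumo2 had 205.3 TPM in zygotes and 222.6 TPM in PB2, and Sumo3 had 119.9 and 145.9 TPM. Ufm1 had 45.9 TPM in zygotes and 33.5 TPM in PB2 (log2 ratio -0.44). None of the 5 modifiers passed 2-fold towards PB2, beside 18.9% of all genes compared.

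Ubiquitin itself is made from precursor genes, which the symbol rule does not take. Ubb, a chain of ubiquitin units in a row, had 1390.3 TPM in zygotes and 622.0 TPM in PB2 (log2 ratio -1.16), 2.24-fold lower. Rps27a, a precursor fused to a ribosomal protein, had 6.0 and 7.2 TPM.

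The E1 genes of one modifier could differ in direction. Uba1, the main E1 of ubiquitin, had 59.7 TPM in zygotes and 151.2 TPM in PB2, 2.53-fold higher. Uba6, an E1 that also charges ubiquitin but hands it to its own E2, had 23.7 TPM in zygotes and 12.6 TPM in PB2 (log2 ratio -0.86). Uba1 thus had 2.52 times the TPM of Uba6 in the zygote and 12 times in PB2. With the GC trend removed, the log2 ratio was 0.90 for Uba1 and -0.41 for Uba6, both under 2-fold. Sae1 and Uba2 encode the 2 subunits of the SUMO E1 and lay side by side. Sae1 had 20.7 TPM in zygotes and 41.7 TPM in PB2, and Uba2 had 20.4 and 40.4 TPM. Their log2 ratios were 0.98 and 0.95, just under 2-fold, and the ratio of Uba2 to Sae1 was 0.986 in the zygote and 0.969 in PB2. With the GC trend removed they lay further apart, at 0.59 for Sae1 and 0.91 for Uba2.

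The subunits of the NEDD8 E1 did not keep step in this way. Nae1, the regulatory subunit, had 205.5 TPM in zygotes and 70.2 TPM in PB2, 2.93-fold lower, the lowest log2 ratio of the conjugation genes. Its catalytic partner Uba3 had 65.4 TPM in zygotes and 61.3 TPM in PB2. The ratio of Nae1 to Uba3 was 3.14 in the zygote and 1.15 in PB2. With the GC trend removed, the log2 ratio was -1.22 for Nae1 and 0.36 for Uba3.

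The E2 enzymes that serve modifiers other than ubiquitin followed no common direction. The E2 genes of NEDD8 were low. Ube2f had 4.4 TPM in zygotes and 2.6 TPM in PB2, while Ube2m had 1.3 and 2.9 TPM. Their deposited values differed in opposite directions, but at 1 decimal the ratio of PB2 to zygote may lie anywhere from 2.11 to 2.36 for Ube2m, and neither reached 2-fold on the log2(TPM + 1) scale. Ufc1, the E2 of UFM1, had 12.9 TPM in zygotes and 4.9 TPM in PB2, 2.63-fold lower.

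**Figure D2:**
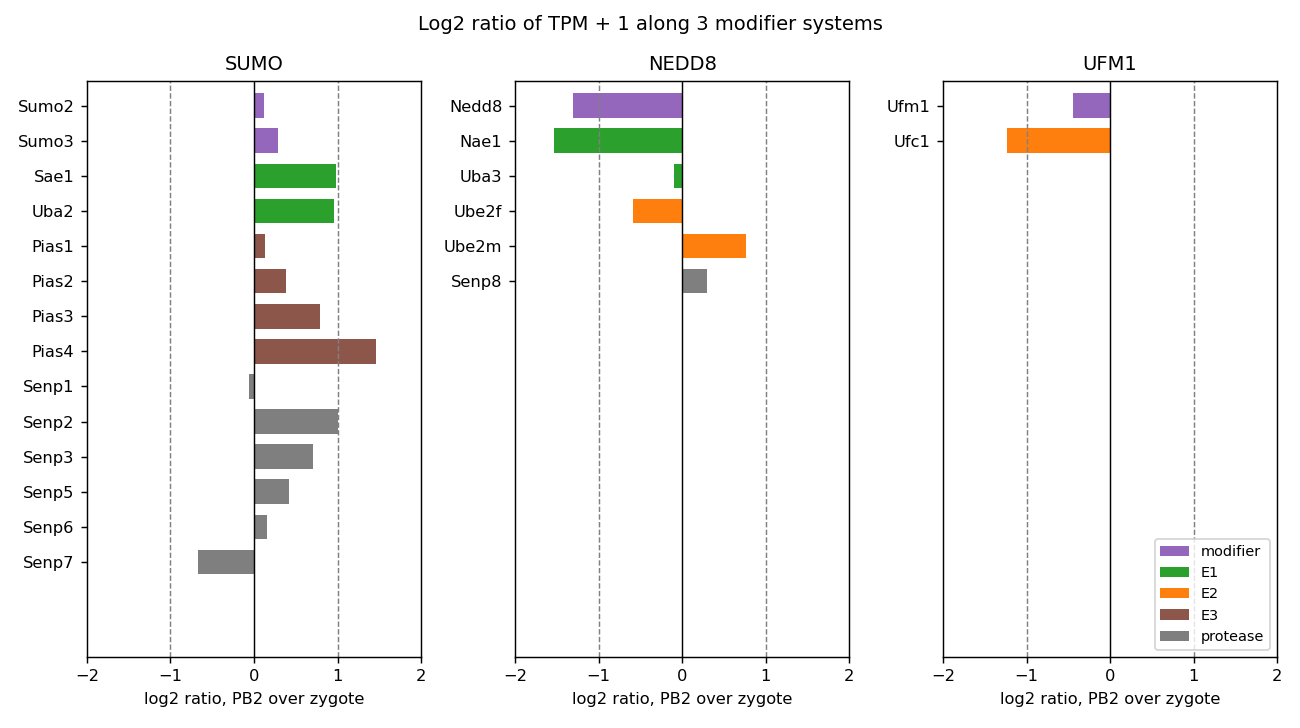
Log2 ratio of PB2 over zygote (TPM + 1) for genes of the SUMO, NEDD8 and UFM1 systems, 1 library of each kind, coloured by step of the relay, with dashed lines at 2-fold. In the SUMO system Sae1, Uba2 and the 4 Pias genes lie above 0 (Pias1 at -0.08 once centred), and in the NEDD8 system Nedd8 and Nae1 lie at -1.31 and -1.54.

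The PIAS proteins are E3 ligases of SUMO, and all 4 genes had a log2 ratio above 0, as did 59.2% of all genes compared, although Pias1 was at -0.08 once ratios were centred and at -0.21 with the length trend removed. Pias4 had 29.6 TPM in zygotes and 83.3 TPM in PB2, 2.81-fold higher. Pias1, the most abundant, had 229.9 and 252.3 TPM and Pias2 had 34.9 and 45.8 TPM, so both were close to level. Pias3 was scarce, with 0.8 TPM in zygotes and 2.1 TPM in PB2.

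SENP proteases cut SUMO from its targets, except SENP8, which acts on NEDD8. Senp2 was the only one of the 7 Senp genes to reach 2-fold, with 4.0 TPM in zygotes and 9.0 TPM in PB2 (log2 ratio 1.00), on the threshold. Over all genes compared, 18.9% reached it towards PB2 and 8.09% towards the zygote. Senp3 had 5.3 TPM in zygotes and 9.3 TPM in PB2, and Senp5 had 24.3 and 32.8 TPM. Senp1 had 35.5 and 34.1 TPM, Senp6 83.6 and 93.3 TPM, and Senp8 96.9 and 119.7 TPM. Senp7, which trims SUMO chains, had 4.9 TPM in zygotes and 2.7 TPM in PB2, the lowest log2 ratio of the Senp genes at -0.67.

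Taken by modifier system, the median log2 ratio was 0.33 over the 16 SUMO genes, -0.34 over the 6 NEDD8 genes and -0.44 over the 3 UFM1 genes, beside 0.21 over all genes. With ratios centred on that value the medians were 0.12, -0.55 and -0.65. After removal of the GC trend they were 0.24, -0.48 and -0.19, beside 0.0099 over all genes.

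The E2 enzymes of ubiquitin formed the largest group, with 26 genes, of which 25 were compared. Of these, 5 passed 2-fold towards PB2 and 2 towards the zygote, 20.0% and 8%, close to the shares of 18.9% and 8.09% over all genes. After centring, 3 and 2 of them passed. Ube2z, an E2 charged by Uba6, had 4.0 TPM in zygotes and 14.7 TPM in PB2, the highest log2 ratio of the conjugation genes at 1.65. Ube2o, a large protein that combines E2 and E3 activity, had 4.5 TPM in zygotes and 15.6 TPM in PB2, 3.47-fold higher. Ube2t, the E2 of the Fanconi anemia DNA repair pathway, went the other way, with 125.8 TPM in zygotes and 49.3 TPM in PB2.

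Several E2 enzymes of endoplasmic reticulum quality control were in the set. Ube2g2 had 15.4 TPM in zygotes and 35.8 TPM in PB2, and Ube2j1 had 5.5 and 14.8 TPM, both at least 2-fold higher in PB2. Their paralogues were nearer to level: Ube2g1 had 111.2 TPM in zygotes and 114.5 TPM in PB2, and Ube2j2 had 9.1 and 13.6 TPM. Ube2g1 thus had 7.22 times the TPM of Ube2g2 in the zygote and 3.20 times in PB2. With the GC trend removed, the log2 ratio was 0.33 for Ube2g1 and 0.54 for Ube2g2. For Ube2j1 and Ube2j2 it was then 1.35 and 0.20.

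The Ube2e family was split. Ube2e1 had 3.0 TPM in zygotes and 7.9 TPM in PB2, whereas Ube2e2, its neighbour on chromosome 14, had 5.0 TPM in zygotes and 1.6 TPM in PB2. The log2 ratios were 1.15 and -1.21, and the ratio of Ube2e1 to Ube2e2 was 0.60 in the zygote and 4.94 in PB2. Both are low values, and rounding to 1 decimal alone allows a ratio of PB2 to zygote between 2.57 and 2.69 for Ube2e1 and a ratio of zygote to PB2 between 3.0 and 3.26 for Ube2e2. Ube2e3, the most abundant of the family, had 26.1 and 28.0 TPM.

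Other E2 families kept closer together. Ube2a and Ube2b, the E2 pair that ubiquitinates histone H2B and PCNA, had 77.1 and 69.4 TPM in zygotes and 78.1 and 64.9 TPM in PB2. In the Ube2d family Ube2d2a had 221.5 TPM in zygotes and 322.5 TPM in PB2, Ube2d3 had 229.5 and 261.6 TPM, and Ube2d1 had 12 and 19.2 TPM. All 3 had log2 ratios between 0.19 and 0.64. Ube2q2 had 16.4 TPM in zygotes and 24 TPM in PB2, beside Ube2q1 at under 1 TPM. Ube2l3, an E2 that works with HECT and RBR ligases, was scarce in both libraries with 2.6 and 1.7 TPM.

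The E2 pair of the anaphase-promoting complex was abundant. Ube2c, which starts the ubiquitin chains, had 121.3 TPM in zygotes and 107.1 TPM in PB2. Ube2s, which extends them, had 140.3 TPM in zygotes and 271.6 TPM in PB2 (log2 ratio 0.95). The ratio of Ube2s to Ube2c was 1.16 in the zygote and 2.54 in PB2. With the trend on GC content removed, the log2 ratio of Ube2s was 0.059 and that of Ube2c went from -0.18 to -0.89. The E2 pair of K63-linked chains pointed to the zygote in both members. Ube2n had 143.0 TPM in zygotes and 87.9 TPM in PB2 (log2 ratio -0.70), and its cofactor Ube2v2, an E2 variant without the catalytic cysteine, had 12.9 and 5.6 TPM, 2.3-fold lower. With the trend on GC content removed, Ube2n was at -0.40 and Ube2v2 at -0.52, both under 2-fold. Ube2v1, the other E2 variant looked for, was not in the table.

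Of the remaining ubiquitin E2 genes, Ube2k had 112.9 TPM in zygotes and 151.3 TPM in PB2, Ube2h had 49.2 and 78.5 TPM, and Ube2u had 33.7 and 42.8 TPM. Ube2w, which ubiquitinates protein amino termini, had 180.8 and 124.5 TPM. Ube2r2 had 1.9 and 2.2 TPM. None of these reached 2-fold. Ube2cbp carries the prefix of the family but encodes a ubiquitin ligase that binds an E2 and not an E2 itself, and it had 54.3 TPM in zygotes and 21.8 TPM in PB2 (log2 ratio -1.28).

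Outside the symbol rule, 42 other genes of the same pathways were listed, of which 36 were in the table and compared. Of these, 8 passed 2-fold towards PB2 and 2 towards the zygote, 22.2% and 5.56%, beside 18.9% and 8.09% of all genes, and their median log2 ratio was 0.19. With ratios centred, the counts were 7 and 6, beside 13% and 12.1% of all genes, while after removal of the GC trend they were 5 and 3, beside 9.08% and 11%. The genes higher in the zygote were Ubb and Nsmce2, a SUMO ligase of the SMC5/6 complex, with 541.4 TPM in zygotes and 232.2 TPM in PB2. Cdc34 and Cdc34b, E2 enzymes of the cullin ligases related to Ube2r2, were both higher in PB2. Cdc34 had 44.2 TPM in zygotes and 179.0 TPM in PB2, and Cdc34b had 158.2 and 373.1 TPM. With the trend on GC content removed neither reached 2-fold, as Cdc34 went from 1.99 to 0.96 and Cdc34b from 1.23 to 0.31. Ube2r2 at about 2 TPM was the minor member beside them.

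Among the partners of NEDD8, Dcun1d5, which helps to attach NEDD8 to cullins, had 145.5 TPM in zygotes and 627.8 TPM in PB2 (log2 ratio 2.10). Its relative Dcun1d1 had 452.5 and 269.5 TPM, and Rbx1, the RING subunit of cullin ligases, had 1191.6 and 643.3 TPM. Of the other genes of this list, Dcun1d2 had 6.5 and 13.7 TPM, Dcun1d4 16.1 and 25.2 TPM, Dcun1d3 1.6 and 0.4 TPM and Rnf7 31.2 and 17.8 TPM, none of them 2-fold apart on the log2(TPM + 1) scale. In the UFM1 pathway the ligase Ufl1 had 79.1 TPM in zygotes and 57.3 TPM in PB2, and the protease Ufsp2 had 96.2 and 59.0 TPM. Its relative Ufsp1 had 0.2 TPM in zygotes and 6.8 TPM in PB2. The other genes of these lists higher in PB2 were Zmiz1, Zmiz2 and Desi1 of the SUMO pathway and Atg3, the E2-like enzyme of autophagy. Zmiz1 had 1.2 and 8.6 TPM, Zmiz2 6.8 and 14.7 TPM, Desi1 5.4 and 14.0 TPM, and Atg3 13.6 and 39.9 TPM. Of these, Zmiz2 (0.091) and Desi1 (0.80) were under 2-fold with the trend on GC content removed.

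Across all genes, the log2 ratio moved with the GC content of the transcript (Spearman's rho 0.44 across 10606 genes), and it did so across the conjugation genes as well (rho 0.44, n = 54). These are descriptions across genes of the same 2 libraries, and genes are not replicates. In the 18 conjugation genes with the lowest GC content, from 35.1% to 42.9%, none passed 2-fold towards PB2 and 3 passed it towards the zygote, beside 3.32% and 17.5% of all genes in that range. In the middle 18, from 43.8% to 49.6%, the counts were 3 and 1, beside 9.17% and 9.11%. In the 18 with the highest, from 50.1% to 63.4%, 5 passed 2-fold towards PB2 and 4 towards the zygote, beside 33% and 3.51%. The median log2 ratios were -0.09, 0.46 and 0.74, beside -0.29, 0.027 and 0.64 for all genes in the same ranges of GC content.

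To show the base composition of genes on both sides, the first 90 coding bases of the longest protein-coding transcript are given for the genes with the highest and the lowest transcript GC content on each side, Pias4 and Ube2e1 among those higher in PB2 and Nedd8 and Ube2v2 among those higher in the zygote. Capitals mark a G or C at the third position of a codon.
Pias4: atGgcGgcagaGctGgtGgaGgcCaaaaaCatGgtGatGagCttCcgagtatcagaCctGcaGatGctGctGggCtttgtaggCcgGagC
Ube2e1: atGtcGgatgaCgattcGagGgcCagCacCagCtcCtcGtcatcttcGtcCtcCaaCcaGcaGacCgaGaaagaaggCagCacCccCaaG
Nedd8: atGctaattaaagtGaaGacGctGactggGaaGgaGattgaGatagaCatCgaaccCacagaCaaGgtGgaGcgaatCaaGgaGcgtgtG
Ube2v2: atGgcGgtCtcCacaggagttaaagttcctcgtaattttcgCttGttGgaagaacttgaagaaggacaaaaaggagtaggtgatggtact
Of the 30 codons shown, 23 ended in G or C in Pias4, 24 in Ube2e1, 20 in Nedd8 and 7 in Ube2v2. Over the whole coding sequence the share was 74.8% in Pias4, 55.2% in Ube2e1, 56.1% in Nedd8 and 32.2% in Ube2v2. In GRCm38, Pias4 lies at chr10:81153266-81167923, Ube2e1 at chr14:18282722-18331859, Nedd8 at chr14:55662263-55672124 and Ube2v2 at chr16:15552077-15595773, all on the minus strand. Nae1 (chr8:104511028-104534637) also lies on the minus strand, and Uba1 (chrX:20658326-20683179) on the plus strand. Ube2v2 was the member with the lowest transcript GC content, 35.1%, and was higher in the zygote. Nedd8, at 54.7%, was also higher in the zygote.

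**Figure D3:**
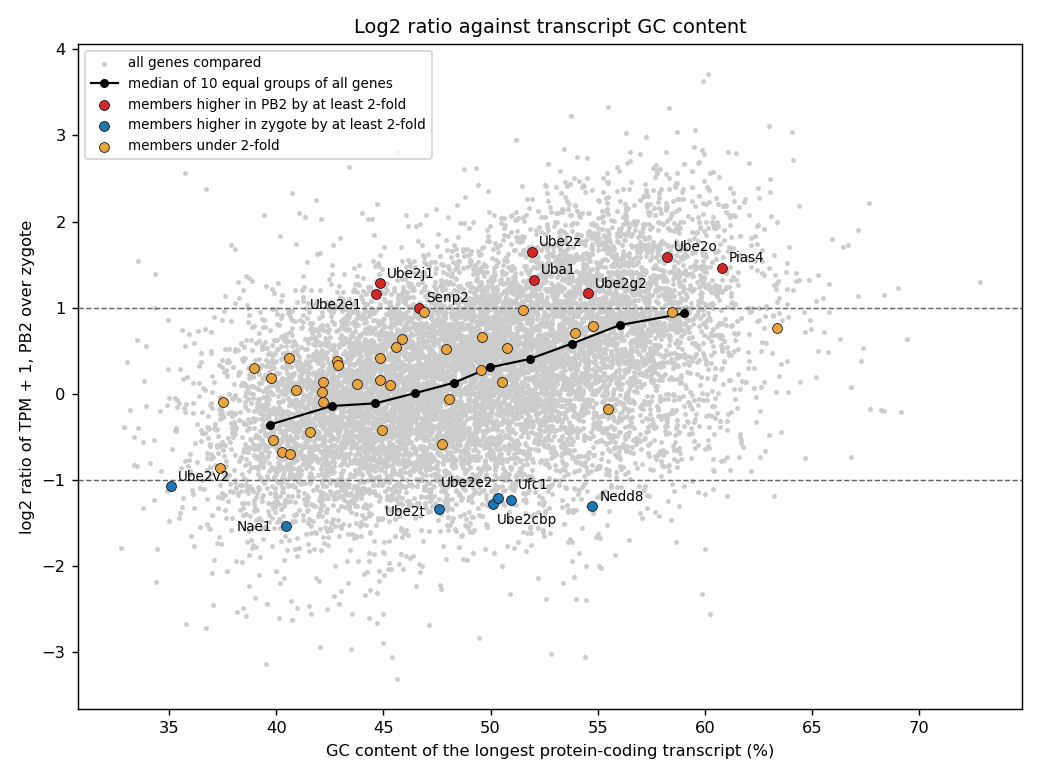
Log2 ratio of PB2 over zygote (TPM + 1) against GC content of the longest protein-coding transcript for all genes compared (grey), with the median of 10 equal groups of genes (black line) and conjugation genes in colour. The median rises with GC content, Pias4 and Ube2o lie high at GC contents of 60.8% and 58.2%, and Nedd8, Ufc1, Ube2e2 and Ube2cbp lie below -1 at GC contents above 50%.

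With the trend on GC content removed, 3 conjugation genes passed 2-fold towards PB2 and 7 towards the zygote, against 9.08% and 11% of all genes. The 3 were Ube2j1, Ube2z and Ube2e1, which were also among the 8. Pias4 went from 1.46 to 0.48, Ube2o from 1.59 to 0.72, Ube2g2 from 1.17 to 0.54 and Uba1 from 1.33 to 0.90. On the zygote side the same genes stayed past 2-fold except Ube2v2, which went from -1.07 to -0.52, and Nedd8 moved further, to -1.95.

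Transcript length also differed between the sides. The 8 genes higher in the zygote had a median transcript length of 1369 nucleotides, the 8 higher in PB2 3764 nucleotides and the other 38 compared 2973 nucleotides. Over all genes the medians were 2118 nucleotides for those higher in the zygote and 3186 nucleotides for those higher in PB2. With the trend on length removed, Nae1, Ube2t, Ube2cbp, Ube2e2 and Ube2v2 stayed more than 2-fold higher in the zygote, while Nedd8 was at -0.92 and Ufc1 at -0.95. Uba6 (-1.19), Ube2n (-1.04) and Senp7 (-1.02) then passed 2-fold on that side. On the PB2 side Ube2z, Ube2o, Pias4 and Ube2e1 stayed past 2-fold and Ube2s (1.09) joined them. Uba1 (0.98), Ube2g2 (0.93), Ube2j1 (0.93) and Senp2 (0.66) fell under it. Over all genes, 12.1% were then higher in PB2 and 11.7% in the zygote. The part of GC content, length and cDNA amplification in these differences was not tested.

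**Figure D4:**
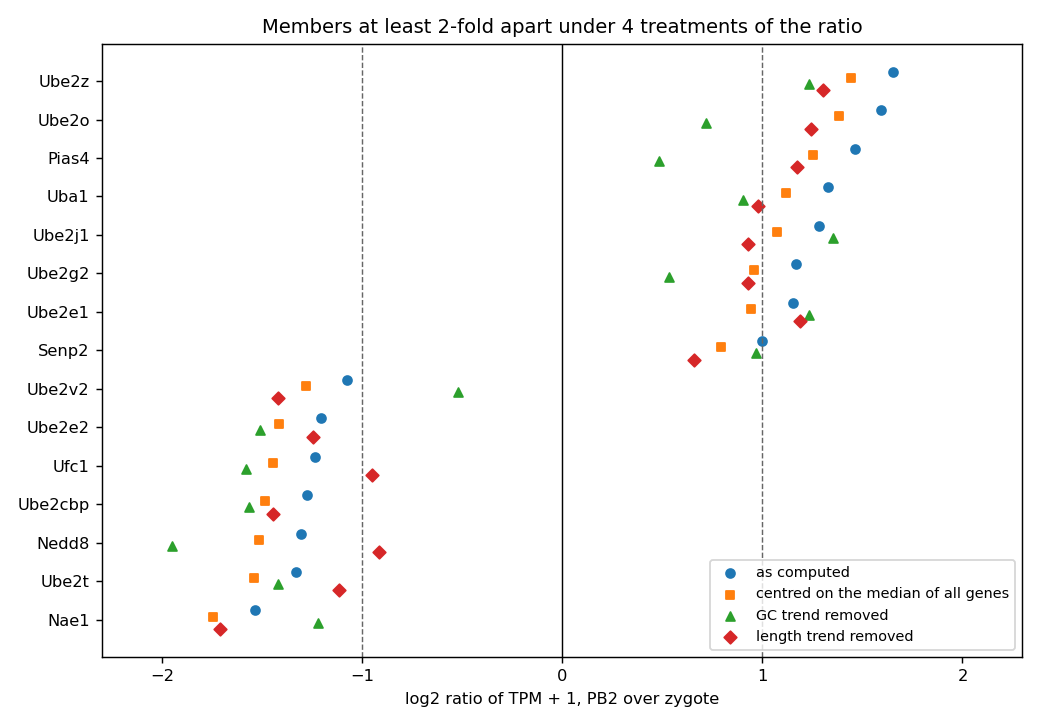
Log2 ratio of PB2 over zygote (TPM + 1) of 15 conjugation genes at least 2-fold apart, as computed, centred on the median of all genes, and with the trend on GC content or on transcript length removed (dashed lines, 2-fold). No point crosses 0, Nae1, Ube2t, Ube2cbp and Ube2e2 stay below -1 throughout, and Ube2z alone stays above 1 throughout.

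Some conjugation genes share sequence with pseudogenes or neighbours, where the counting of reads could move them. The share of 50-base words of a gene's longest protein-coding transcript that also occur in a transcript of another gene was 0 for 28 of the 55 genes and above 10% for 9. Among these 9 it was 30.2% for Sumo2, 20.9% for Ube2q2, 16.2% for Ube2d2a, 14.5% for Senp3, 12.9% for Ube2j2, 12.1% for Ube2e1, 11.5% for Sumo3 and 10.7% for Ube2n. For Nedd8, Nae1, Ube2t, Ufc1, Ube2e2, Ube2cbp, Pias4, Ube2o, Ube2z and Ube2j1 it was 0.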

How the data were processed

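PB2 and zygotes were profiled by RNA-seq with 1 library each. Per the labels and the methods, reads were aligned with HISAT2 2.0.4, counted per gene with HTSeq 0.6.1p1 on an Ensembl annotation and normalized with DESeq2 1.18.1. The processing notes name the builds OryCun2.0 (rabbit) and GRCm38, and the identifiers are those of mouse. The authors deposited TPM values rounded to 1 decimal, and how TPM was derived from the counts is not given in the sources used here. Without counts no depth, interval or count test could be had.

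Log2 ratios used a pseudocount of 1 over genes with at least 1 TPM in either library, and a gene was counted past 2-fold. Positions, GC content and length came from the longest protein-coding transcript in GENCODE M21 (GRCm38), found for all 55 members. Trends were fitted by lowess with a span of 0.3. The functions were tested on simulated data with known changes. Alternatives were other pseudocounts, filters, thresholds, scalings and the removal of trends. Named with values were the modifiers, E1 genes, E2 genes of ubiquitin-like modifiers, Pias and Senp genes, members past 2-fold, the 5 highest in each library and E2 families, and from the pathway lists genes past 2-fold or partners of a modifier described. Other members were named to account for them, and some genes of the set are not reported here, although counts and medians include them. The members, lists and alternatives were chosen with earlier results of these data known, and the grouping by modifier system, the sequences shown and the 50-base words were added after the values were seen. Trends used statsmodels 0.14.6 under Python 3.11.15, tables pandas 2.3.3 with numpy 2.4.6, correlations scipy 1.17.1 and figures matplotlib 3.10.9.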

Additional observations from a re-analysis of the deposited data

How the results depend on the processing

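No paired analysis was possible because PB2 and the zygote have a single library each. The count of conjugation genes higher in PB2, 8 as reported, was 5 with ratios centred on the median of all genes, 5 with the length trend removed, 3 with the GC trend removed, 16 at a threshold of 1.5-fold and 0 at 4-fold. Shares of all genes higher in PB2 were 13%, 12.1%, 9.08%, 34.3% and 2.48%, in the same order. The count higher in the zygote, 8 as reported, was 0 at 4-fold and between 7 and 12 under the other alternatives. Shares of all genes higher in the zygote were 0.70% at 4-fold and between 7.65% and 18.2% under the others. The median log2 ratio of 0.17 changed sign with centring, to -0.037, and with the length trend removed, to -0.087. It was 0.21 with the GC trend removed, beside 0.0099 over all genes. Pseudocounts of 0.1 and 0.01 each gave 11 genes higher in PB2, adding Sae1, Ube2m and Pias3, whose deposited values were at least 2-fold apart. Over all genes, 24.7% were then higher in PB2. Centring subtracts 0.21 from every ratio. Senp2, on the threshold, was under 2-fold in 5 of 9 alternatives, and Nae1, Ube2t, Ube2cbp, Ube2e2 and Ube2z stayed past 2-fold in all 9 alternatives that keep the threshold. Of 479 log2 ratios of single genes under these alternatives, 467 lay within 0.5 of the reported one and 12 moved further, and no gene past 2-fold changed direction. Of these 12, 10 moved with the GC trend removed, out of 54 ratios under that setting. The filters leave every ratio as it was, centring shifts each by 0.21, and scaling to a median ratio of 1 multiplies the zygote values by 1.06. Ratios under those settings could not move by 0.5, so for many of the 467 the outcome was set in advance. Depth is unknown, so counting error limits genes of a few TPM, such as Ube2e1, Ube2e2 and Senp2, by an amount that cannot be given.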
